A study of Mus musculus with 44 samples.

Results

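The secretory products of the gastric chief cell and the transcription factor that marks its mature state were followed in mouse stomach: Gif (intrinsic factor), Pgc (pepsinogen C), Pga5 (pepsinogen A), Chia1 (acidic mammalian chitinase) and Bhlha15 (the factor also called MIST1). These 5 genes were chosen for their place in the chief cell, out of 31484 genes with a transcript in the deposited counts. All 5 passed the filter on low counts that left 14901 genes for testing. The tissue was mucosa of the ventral gastric corpus from female mice of BalbC background, taken at an age of 13 months. KO mice lack the H+/K+ATPase beta subunit, the proton pump subunit encoded by Atp4b whose first exon was targeted, and WT mice carry the intact gene. NTZ mice had received netazepide (formerly YF476), an antagonist of the gastrin receptor, as repeated subcutaneous injections from young age, and PEG mice its polyethylene glycol vehicle. The libraries numbered 11 for WT/PEG, 9 for WT/NTZ, 13 for KO/PEG and 11 for KO/NTZ, with 6065084 to 21945124 estimated reads each.

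Chief cells sit at the base of the corpus glands and mature from mucous neck cells as these move down the gland. They store digestive proteins in large zymogen granules and release them into the lumen, where acid converts pepsinogens to active pepsins. MIST1 switches on the machinery of the granules and of regulated secretion in such cells. When parietal cells are lost or acid is absent, the base of the gland is often taken over by spasmolytic polypeptide-expressing metaplasia (SPEM), a mucous lineage with few granules.

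Pgc has a pair of transcripts in the GENCODE annotation, and they were also counted apart. Pgc-201 (ENSMUST00000024782) has 9 exons and encodes the pepsinogen. Pgc-202 (ENSMUST00000144955) is an incomplete model of 4 exons that joins exon 2 straight to exon 5. It leaves out exons 3 and 4, which together hold 237 bases (79 codons), so that the reading frame is kept. Pgc-201 has further junctions that Pgc-202 lacks and that are not shown. The exon 2 to exon 5 junction of Pgc-202 and the Pgc-201 junctions that share an end with it are printed below. They lie on the plus strand of chr17 in GRCm38, with the last 30 bases of the first exon in lower case and the first 30 bases of the second in capitals.
Pgc-201, exon 2 to exon 3 (base 47728901 to base 47729252): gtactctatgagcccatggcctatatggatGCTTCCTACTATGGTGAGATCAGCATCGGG
Pgc-201, exon 4 to exon 5 (base 47730212 to base 47730599): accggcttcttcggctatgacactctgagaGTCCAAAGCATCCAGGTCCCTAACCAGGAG
Pgc-202, exon 2 to exon 5 (base 47728901 to base 47730599): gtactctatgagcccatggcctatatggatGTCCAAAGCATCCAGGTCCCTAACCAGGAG
The Pgc-202 junction carries the end of exon 2 seen in the first line and the start of exon 5 seen in the second. Of the 460 31-base words of Pgc-202, 29 were absent from Pgc-201, all of them spanned this junction, and no other transcript of the annotation held them.

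The targeted gene was checked first. Atp4b was between 2.35 and 40.8 CPM (counts scaled to the library total after TMM normalization) in the KO libraries and between 2116 and 5758 CPM in the WT libraries, so that every library carried the genotype of its label. The number of an animal in the labels is 100 or above for all 11 libraries of WT/PEG, 4 of WT/NTZ, 7 of KO/PEG and 1 of KO/NTZ mice, and below 100 for the others. The labels do not say what the numbers stand for. One number is shared by 2 libraries of WT/PEG mice, and another, 110, occurs once in each KO group. The KO/PEG label was given to more libraries than the number of KO/PEG mice in the study's text, so p-values measure the spread between these libraries, some of which may not be separate mice. Of 13 chief cell marker genes, which include the 5 genes followed here, 11 could be tested. In KO/PEG versus WT/PEG mice 8 of them fell and 3 rose (Pga5, Cym and Rab3d), with a median log2 fold change of -1.52 against -0.00288 over all genes tested. Gif, Pgc, Chia1 and Bhlha15 were among those that fell, and the median is the value of Bhlha15, so the list is no separate evidence on them. The others that fell were Clps, Rab26, Xbp1 and Anpep. Of all genes tested 74.7% passed there, and with library totals alone 6 of the 11 fell, while Xbp1 and Anpep no longer passed. Lipf, the gastric lipase often used as a chief cell marker in other species, was at most 2.23 CPM in any library. The 11 pancreatic acinar genes summed to 68.6 to 283 CPM over all libraries, mostly from Cela1, Try4 and Cel, while Prss2 and Cpa1 were at most 0.944 and 1.21 CPM.

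Pepsinogen C was by far the most abundant product. Scaled for transcript length (TPM), Pgc ranked 1 among all 31484 genes in both WT groups, and it dropped to rank 13 in KO/PEG and 15 in KO/NTZ mice. Pgc (chr17:47726842-47734482, plus strand, GRCm38) had a lowest, median and highest level of 83551, 152319 and 201883 CPM in WT/PEG, 57497, 144640 and 182208 in WT/NTZ, 1767, 8435 and 31158 in KO/PEG and 2563, 6658 and 18688 in KO/NTZ mice. All 24 KO libraries were below all 20 WT libraries. In KO/PEG versus WT/PEG mice Pgc fell 15.3-fold, or by a log2 value of -3.93 (standard error 0.41, edgeR adjusted p = 5.51e-11 from the quasi-likelihood test with Benjamini-Hochberg adjustment). Since bulk tissue was measured, fewer chief cells and less RNA per chief cell cannot be told apart for any of the 5 genes. Each of the 5 genes passed this test between these groups, as did 74.7% of all genes tested (37.5% higher, 37.2% lower in KO/PEG). Complete separation of KO/PEG from WT/PEG libraries, which Pgc showed, was seen for 14% of genes. Pgc alone made up 8.87% to 17.1% of the reads of a WT/PEG library and 0.221% to 3.35% of a KO/PEG library, ranges that did not overlap.

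Pga5, the other pepsinogen gene, changed in the opposite direction. Pga5 (chr19:10668956-10678071, minus strand) had a lowest, median and highest level of 59, 106 and 189.9 CPM in WT/PEG, 59.1, 135 and 227 in WT/NTZ, 41.3, 272 and 1829 in KO/PEG and 258, 309 and 377 in KO/NTZ mice. The KO/PEG libraries spread from below the lowest WT/PEG value to far above the highest, and 8 of 13 were above all WT/PEG libraries. The KO/NTZ libraries were all above the WT libraries of both treatments and lay within a narrow band. The log2 fold change was 2.46 in KO/PEG versus WT/PEG mice (standard error 0.42, edgeR adjusted p = 1.68e-06). Even so Pga5 stayed the minor pepsinogen in every library. The TPM of Pgc was a median of 1592 times that of Pga5 in WT/PEG libraries (range 774 to 2934) and 21 times in KO/PEG libraries (range 8.76 to 49.3).

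Chia1, which digests chitin and is a major chief cell product in mice, varied the most of the 5 genes. Chia1 (chr3:106113229-106132120, plus strand) had a lowest, median and highest level of 7215, 27526 and 52041 CPM in WT/PEG, 8985, 22088 and 50772 in WT/NTZ, 7.58, 660.3 and 14268 in KO/PEG and 18.9, 1607 and 11119.7 in KO/NTZ mice. The highest KO libraries reached into the lower WT range, while the lowest KO/PEG library was 1882-fold below the highest of its own group. The log2 fold change was -3.15 between the vehicle groups (standard error 0.85, edgeR adjusted p = 0.00115), and 11 of 13 KO/PEG libraries were below all WT/PEG libraries. The standard deviation of log2 CPM among KO/PEG libraries was 3.67, which exceeded that of 99.95% of the genes tested. In WT/PEG it was 0.90, above that of 96.1% of genes.

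Gif encodes intrinsic factor, the carrier that takes up vitamin B12 in the intestine, and in mice it is made by chief cells. Gif (chr19:11747554-11763447, plus strand) had a lowest, median and highest level of 4079, 6106 and 7199.9 CPM in WT/PEG, 3353, 4991 and 6893 in WT/NTZ, 28.6, 962 and 4176 in KO/PEG and 50.6, 399 and 2376 in KO/NTZ mice. The WT libraries were close to one another, and 12 of 13 KO/PEG libraries were below all WT/PEG libraries. The log2 fold change was -2.08 in KO/PEG versus WT/PEG mice (standard error 0.50, edgeR adjusted p = 0.000303). Gif kept a near fixed proportion to Pgc in WT/PEG mice, where its TPM was between 0.0275 and 0.0438 of that of Pgc. In KO/PEG mice this proportion ranged from 0.00984 to 0.302 in 12 libraries and was 0.976 in KO_46, which also had the highest mitochondrial share of all 44 libraries (14.4%). KO_46 also had the highest smooth muscle marker sum of KO/PEG (2160 CPM) and the lowest surface mucous cell marker sum of all libraries (14383 CPM). Within KO libraries (n = 24) r of Gif was 0.54 with the mitochondrial share, 0.68 with the smooth muscle sum and 0.13 with the surface mucous sum. Within WT libraries (n = 20) these r were -0.48, -0.29 and 0.21. They are given as a description, and the part of these measures in Gif was not tested.

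Bhlha15, the regulator, fell as well, with a smaller log2 fold change than Pgc, Chia1 and Gif. Bhlha15 (chr5:144190286-144194441, plus strand) had a lowest, median and highest level of 47.1, 79.8 and 108.6 CPM in WT/PEG, 47.7, 65.4 and 93.8 in WT/NTZ, 15.4, 23.6 and 62.8 in KO/PEG and 7.82, 20.4 and 42.7 in KO/NTZ mice. The 2 highest KO/PEG libraries reached into the WT/PEG range and the other 11 were below it, and all KO/NTZ libraries were below all WT/NTZ libraries. Between the vehicle groups its log2 fold change was -1.52 (standard error 0.23, edgeR adjusted p = 2.66e-07). No test was made of the difference in fold change between Bhlha15 and the secretory genes. Marker genes of other cell types moved with genotype too. All 5 mucous neck cell markers tested rose in KO/PEG mice, with a summed level of 792 to 1399 CPM in WT/PEG and 3205 to 39505 CPM in KO/PEG libraries. All 9 parietal cell markers fell, from a sum of 10916 to 17719.8 to 2362 to 8428 CPM, and so did 3 of 4 surface mucous cell markers and, with TMM normalization, all 4 smooth muscle markers (2 of 4 with library totals alone). Of 6 pancreatic acinar genes tested 2 rose and 4 fell, of 5 squamous markers 1 rose, of 4 enterochromaffin-like cell markers 3 rose, and the 1 antral gland marker tested did not pass. The share of mitochondrial reads was 5.81% to 11.7% in WT/PEG and 2.37% to 14.4% in KO/PEG libraries, with all but KO_46 at most 7.8%. The part of these measures in the results on the 5 genes was not tested.

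**Figure D1:**
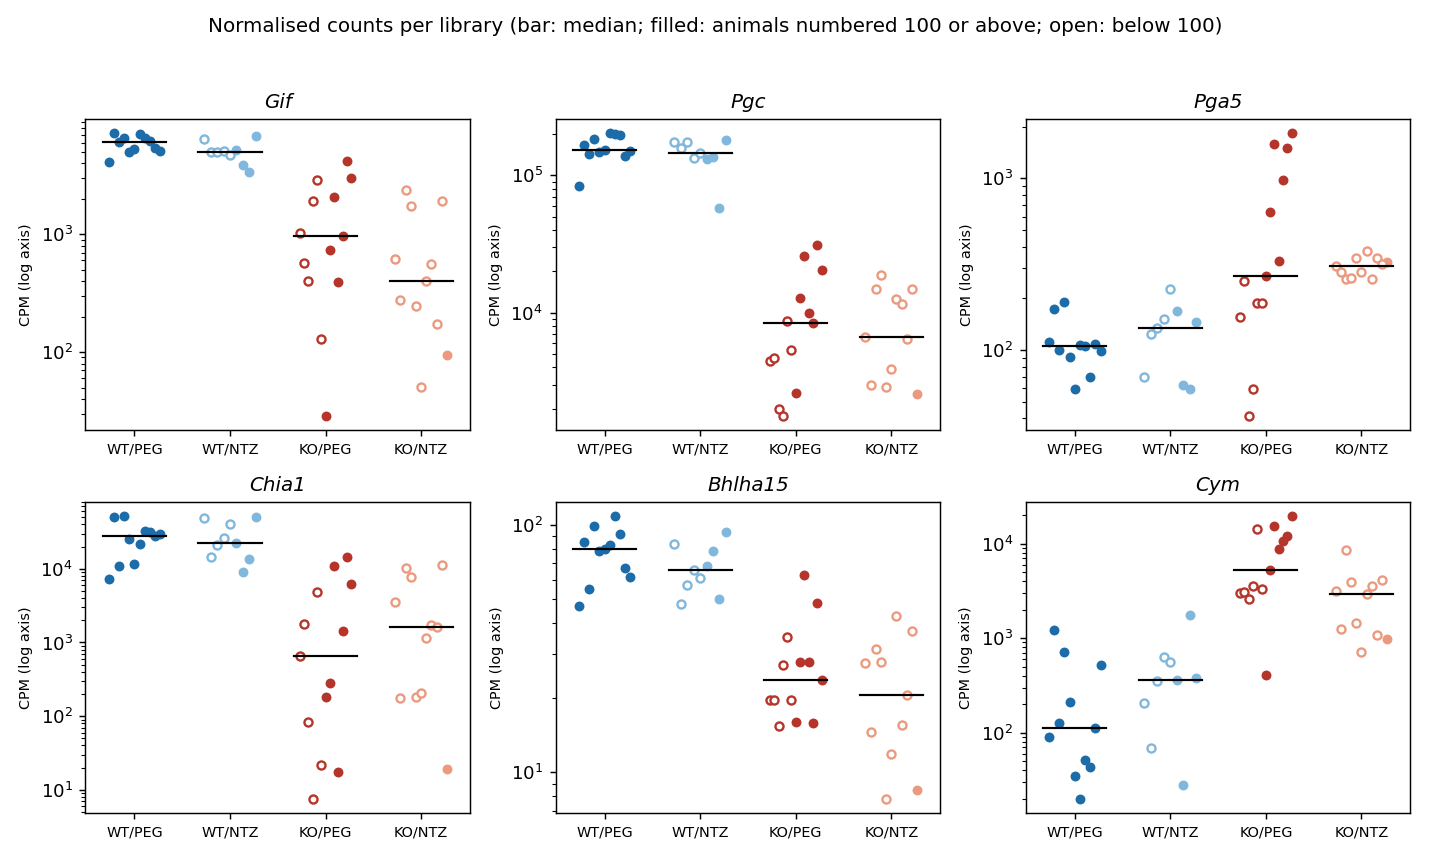
Normalized counts (CPM, log axis) of the 5 genes and of Cym in each of the 44 libraries by group, with the median as a bar and filled points for animals numbered 100 or above. Pgc separates all KO from all WT libraries, Pga5 lies in a band of 258 to 377 CPM in KO/NTZ mice, and the filled KO/PEG points of Pga5 lie above the open ones.

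The position of each gene in the order of all genes by mean TPM shows how the output of the mucosa was reordered. In WT/PEG mice the ranks were 1 for Pgc, 10 for Chia1, 20 for Gif, 868 for Pga5 and 3034 for Bhlha15. In KO/PEG mice they were 13, 52, 113, 278 and 6498 in the same order. Together the 4 secretory genes took up a median of 17% of the reads of a WT/PEG library (range 10.1% to 21%) and 1.1% of a KO/PEG library (range 0.28% to 5.49%). The scaling bears on these comparisons. With library totals alone in place of TMM normalization, the median over all genes of the log2 fold change between the vehicle groups moved from -0.00288 to 0.29 and 71% of the genes called were higher in place of 50.2%, and all 5 genes kept their direction and call.

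The drop of Pgc was not shared evenly by its transcripts. Pgc-202 held a lowest, median and highest share of 0.302%, 1.69% and 3.35% of the Pgc counts in WT/PEG, 0.00812%, 1.02% and 2.08% in WT/NTZ, 0%, 0% and 0.0228% in KO/PEG and 0%, 0% and 0.00138% in KO/NTZ mice. All WT libraries had counts of Pgc-202, whereas 10 of 13 KO/PEG and 10 of 11 KO/NTZ libraries had none. Summed over libraries, Pgc-202 had 344755 of 19772828 Pgc counts in WT/PEG and 13 of 1968656 in KO/PEG mice, the latter a share of 0.00066% (95% Wilson interval 0.000386% to 0.00113%, counting error only). It had 111430 of 13578660 in WT/NTZ and 1 of 1439149 in KO/NTZ mice. For observed reads, 3 counts would be the limit that a count of 0 allows. In libraries at 0 that corresponds to shares of at most 0.0124% in KO/PEG and 0.0149% in KO/NTZ mice. Because these counts are estimates in which shared reads are divided, the lowest share that could have been seen was not tested. The mean share was 1.75% in WT/PEG and 0.00187% in KO/PEG mice (two-sided permutation test, p = 1e-05, the smallest that 100000 resamples can give, adjusted p = 2e-05 over 4 comparisons). In KO/NTZ versus WT/NTZ mice the means were 0.000126% and 0.797% (exact permutation test, p = 5.95e-06, the smallest it can give, adjusted p = 2e-05).

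Within WT mice the share varied from library to library over a wide range. The 2 lowest shares, 0.00812% and 0.0105%, were in the WT/NTZ libraries WT_117 and WT_118, named by genotype and animal number, and were below the highest KO/PEG share, so that WT/NTZ and KO/PEG overlapped. The WT/NTZ libraries WT_103 (0.0931%) and WT_86 (0.127%) were also below all WT/PEG libraries, the lowest of which had 0.302%. The mean share of WT/NTZ was lower than that of WT/PEG mice (exact permutation test, p = 0.0437), but this did not pass adjustment (adjusted p = 0.0583). Among animals numbered 100 or above it did (means 0.293% of 4 and 1.75% of 11 libraries, exact permutation test, adjusted p = 0.0286), and 2 of these 4 libraries were WT_117 and WT_118. With medians in place of means over all libraries the difference did not pass (exact permutation test, adjusted p = 0.292). In KO/NTZ versus KO/PEG mice the share did not pass (permutation test, p = 0.745). Antral gland markers summed to 45.3 and 35.4 CPM in WT_117 and WT_118 (2 genes, Gast and Pdx1), the highest sums of all 44 libraries, and to at most 4.72 CPM in the other WT/NTZ and 19.2 CPM in the WT/PEG libraries. In WT_103 and WT_86, whose shares were also low, these sums were 1.37 and 4.72 CPM. Squamous forestomach markers summed to 2919 and 545 CPM in WT_117 and WT_118. They also summed to 833 CPM in WT_103, 676 CPM in WT_92 and 720.3 CPM in WT_171. The Pgc-202 shares of WT_103, WT_92 and WT_171 were 0.0931%, 1.33% and 1.06%. Without WT_117 and WT_118 the mean share of WT/NTZ was 1.02%, which did not pass against WT/PEG (exact permutation test, adjusted p = 0.191) and did pass between KO/NTZ and WT/NTZ (exact permutation test, adjusted p = 6.28e-05), an alternative chosen after seeing the data. The part of antral gland RNA in these shares was not tested further. Pgc-201 alone fell like the gene, with a log2 fold change of -3.96 in KO/PEG versus WT/PEG mice (edgeR adjusted p = 1.43e-10 over 30782 transcripts, of which 53.5% passed and 27% fell). Since all but 29 of the 31-base words of Pgc-202 also lie in Pgc-201, the estimated counts of Pgc-202 are the division of shared reads by kallisto and not a count of junction reads.

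**Figure D2:**
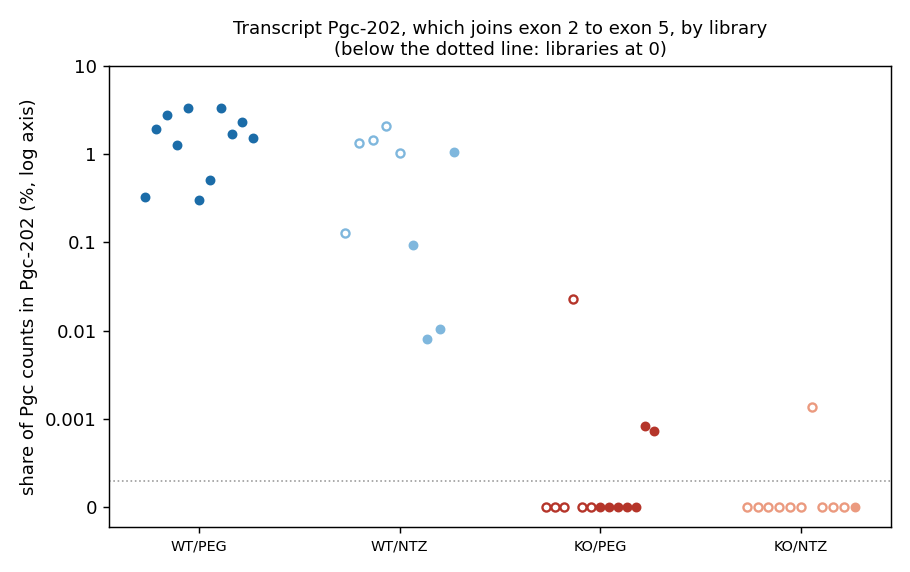
Share of the Pgc counts assigned to Pgc-202 in each library (percent, log axis, libraries at 0 below the dotted line), with filled points for animals numbered 100 or above. All 11 WT/PEG libraries lie between 0.302% and 3.35%, and 20 of the 24 KO libraries lie at 0.

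The next comparison asked whether gastrin receptor antagonism changed these genes in KO mice. None of the 5 passed the test in KO/NTZ versus KO/PEG mice, where 5.56% of all genes tested passed (2.97% higher, 2.6% lower in KO/NTZ) and 0.0403% had groups that did not overlap. The log2 fold changes were -0.87 for Gif (95% interval -1.85 to 0.11), -0.25 for Pgc (-0.98 to 0.48), 0.14 for Chia1 (-1.44 to 1.72) and -0.29 for Bhlha15 (-0.75 to 0.16). Their edgeR adjusted p ranged from 0.26 for Gif to 0.926 for Chia1. Pga5 came closest, with a log2 fold change of -1.01 (95% interval -1.78 to -0.23), an unadjusted p of 0.0141 and an edgeR adjusted p of 0.112. Its mean was 306 ± 39.6 CPM (SD, n = 11) in KO/NTZ and 619 ± 639 CPM (SD, n = 13) in KO/PEG mice, yet 8 of 11 KO/NTZ libraries were above the KO/PEG median. The KO/PEG values were more spread out. The standard deviation of log2 CPM of Pga5 in KO/NTZ mice, 0.19, was larger than that of only 11.5% of genes, whereas in KO/PEG mice it was 1.76, larger than that of 98.8% of genes. The difference in spread was not tested. Enterochromaffin-like cell markers, which come from the cell type on which gastrin acts, were lower in KO/NTZ than in KO/PEG mice for 4 of 4 genes, with Hdc at a log2 fold change of -1.97 (edgeR adjusted p = 1.03e-07). Their sum had a median of 2051 CPM in KO/PEG libraries numbered 100 or above, 1386 CPM in those below 100 and 686 CPM in KO/NTZ libraries below 100. Smooth muscle markers were higher in KO/NTZ mice for 2 of 4 genes. Parietal cell markers were lower for 2 of 9 and pancreatic acinar genes for 1 of 6. The part of these shifts in the results on the 5 genes was not tested.

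Within KO/PEG mice the animal number moved with these values, which was examined after the data had been seen. Within KO/PEG mice, the 7 libraries numbered 100 or above had 272, 983 and 1829 CPM of Pga5 (lowest, median and highest), and the 6 numbered below 100 had 41.3, 172.01 and 254 CPM. The sets did not overlap, which was so for 0.275% of genes. The log2 difference was 2.80 (standard error 0.39, edgeR adjusted p = 0.000109), in a comparison that 1.18% of genes passed. Pgc had a median of 12734 CPM in the former and 4568 CPM in the latter, and its log2 difference of 1.83 also passed (standard error 0.46, edgeR adjusted p = 0.0402). Gif, Chia1 and Bhlha15 did not pass, with edgeR adjusted p of 0.675, 0.281 and 0.329. In WT/NTZ mice, the other group that holds several animals of each number range, none of the 5 genes passed the test by number (adjusted p from 0.947 to 0.994 by edgeR, 0.107% of genes passed). Parietal cell markers summed to 2533 to 8428 CPM in KO/PEG libraries numbered 100 or above and 2362 to 4735 CPM in those below, and mucous neck cell markers to 4246 to 39505 and 3205 to 24737 CPM. Their part in the difference was not tested.

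Restricting the NTZ comparison in KO mice to animals numbered below 100 turned its direction for 3 of the 5 genes. Of the KO/NTZ libraries 10 of 11 were numbered below 100, so treatment and number cannot be fully told apart in the comparison of all libraries. Among animals numbered below 100, Pga5 was 258 to 377 CPM in 10 KO/NTZ and 41.3 to 254 CPM in 6 KO/PEG libraries. Each KO/NTZ library was above each KO/PEG library there, as for 0.309% of genes, although the log2 fold change of 1.06 did not pass (standard error 0.30, edgeR adjusted p = 0.0721, 1.74% of genes passed). Pgc likewise turned to a log2 fold change of 1.09 (edgeR adjusted p = 0.173) and Bhlha15 to 0.07 (edgeR adjusted p = 0.884). Chia1 had a log2 fold change of 1.62 (edgeR adjusted p = 0.333) and Gif one of -0.48 (edgeR adjusted p = 0.631). For animals numbered 100 or above the comparison has a single KO/NTZ library and was not made. The genotype comparison held among animals numbered 100 or above, where log2 fold changes in KO/PEG versus WT/PEG mice were 3.21 for Pga5, -3.33 for Pgc, -2.52 for Chia1, -1.86 for Gif and -1.29 for Bhlha15, all passing as 73.2% of genes did (largest edgeR adjusted p = 0.0102). No WT/PEG animal was numbered below 100. The 6 KO/PEG libraries below 100 overlapped the WT/PEG range of Pga5, and the 8 KO/PEG libraries above all WT/PEG libraries were the 7 numbered 100 or above and 1 other.

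**Figure D3:**
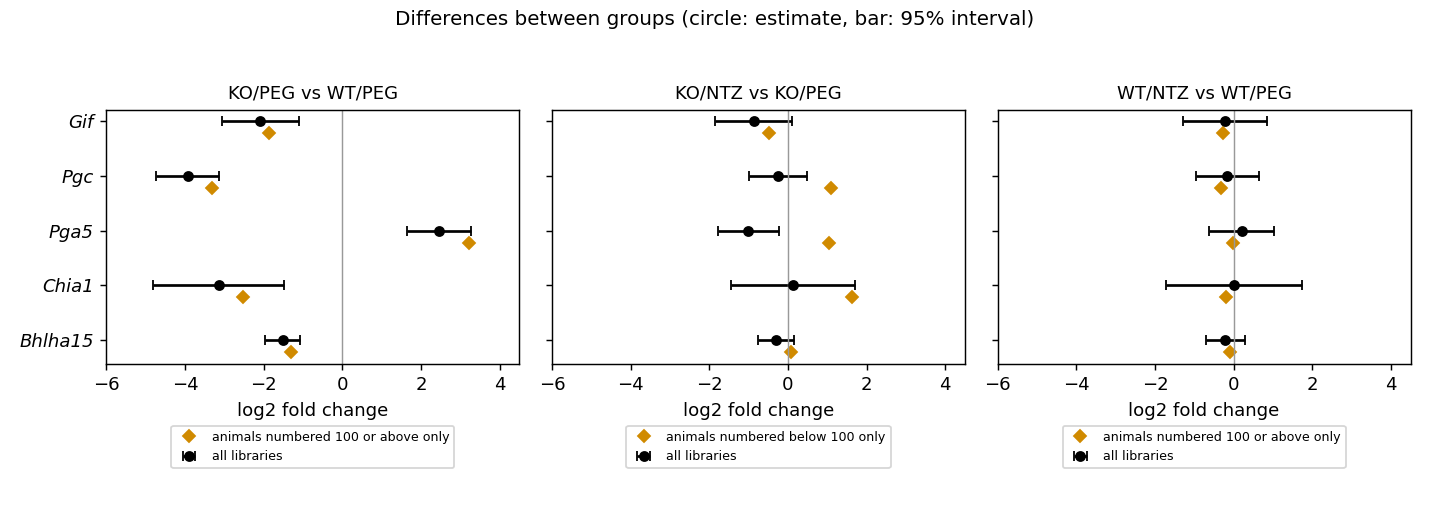
Log2 fold changes of the 5 genes in 3 comparisons, with circles for all libraries, bars for 95% intervals and diamonds for the fit restricted to one range of animal numbers. For KO/NTZ versus KO/PEG the diamonds of Pga5 (1.06) and Pgc (1.09) lie on the other side of 0 from the circles (-1.01 and -0.25).

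In WT mice none of the 5 genes passed the test of NTZ against PEG, where 1.03% of genes passed. The log2 fold changes lay between -0.22 for Gif and 0.20 for Pga5, with edgeR adjusted p of at least 0.945. The 95% intervals were narrowest for Bhlha15 (-0.70 to 0.28) and widest for Chia1 (-1.73 to 1.74), and a 2-fold change of Chia1 in either direction lay within its interval. The fit used 1 estimate of spread per gene for all 4 groups, so these intervals and p also carry the spread among KO libraries. The standard deviation of log2 CPM of Chia1 was 0.90 in WT/PEG and 0.88 in WT/NTZ, against 3.67 in KO/PEG and 2.94 in KO/NTZ mice. For Gif it was 0.25 and 0.32 against 2.01 and 1.80. The intervals are therefore no measure of the spread among WT libraries alone. Under NTZ the genotypes differed in all 5 genes, in a comparison that 72.4% of genes passed (35.6% higher, 36.8% lower). The log2 fold changes in KO/NTZ versus WT/NTZ mice were -4.03 for Pgc, -3.02 for Chia1, -2.74 for Gif, -1.60 for Bhlha15 and 1.26 for Pga5 (edgeR adjusted p from 4.76e-10 for Pgc to 0.00985 for Pga5). Here Gif, Pgc, Pga5 and Bhlha15 had groups that did not overlap, as did 26.5% of genes. The interaction of NTZ and genotype was passed by none of the 5 genes and by 0.96% of all genes. It was largest for Pga5, at a log2 difference of -1.21 (standard error 0.58, edgeR adjusted p = 0.399). Put in order of mean level, Pgc, Gif and Bhlha15 ran from WT/PEG through WT/NTZ and KO/PEG to KO/NTZ, and Pga5 from KO/PEG through KO/NTZ and WT/NTZ to WT/PEG. For Chia1 the order was WT/NTZ, WT/PEG, KO/NTZ and KO/PEG. Neighbours of the same genotype did not pass the test for any of the 5 genes, although the 95% interval of Pga5 between the KO groups left out 0, and groups that differed in both genotype and treatment were not tested against each other.

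Of the wider aspartic protease family, to which pepsinogens belong, 8 of 9 genes listed could be tested. In KO/PEG versus WT/PEG mice 5 rose, Pga5 among them, and 2 fell, Pgc among them, with a median log2 fold change of 0.80. For this list and those below, the share of all genes tested that passed between these groups was 74.7%. The largest rise was in Cym, prochymosin, a milk-clotting protease known from the suckling stomach. Its lowest, median and highest level was 20.1, 112 and 1221 CPM in WT/PEG and 411, 5188 and 19534 CPM in KO/PEG mice, with a log2 fold change of 4.75 (edgeR adjusted p = 1.49e-07). In KO/PEG mice Cym ranked 15 of all genes by TPM, close behind Pgc, and the TPM of Pgc was a median of only 1.32 times that of Cym, against 1041 times in WT/PEG mice. In KO/NTZ versus KO/PEG mice 10 of 11 libraries had less Cym than the KO/PEG median, but the log2 fold change of -1.43 did not pass (edgeR adjusted p = 0.139). The median of Cym was 10631 CPM in KO/PEG libraries numbered 100 or above, 3214 CPM in those below 100 and 3051 CPM in KO/NTZ libraries below 100. By animal number within KO/PEG mice its log2 difference was 1.05 and did not pass (standard error 0.80, edgeR adjusted p = 0.415). The lysosomal protease Ctsd (0.85), Napsa (1.82) and Bace2 (0.76) rose as well on the log2 scale, Bace1 fell (-0.53, not passing with library totals alone), and Ctse, at 1958 and 1723 CPM, did not pass.

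**Figure D4:**
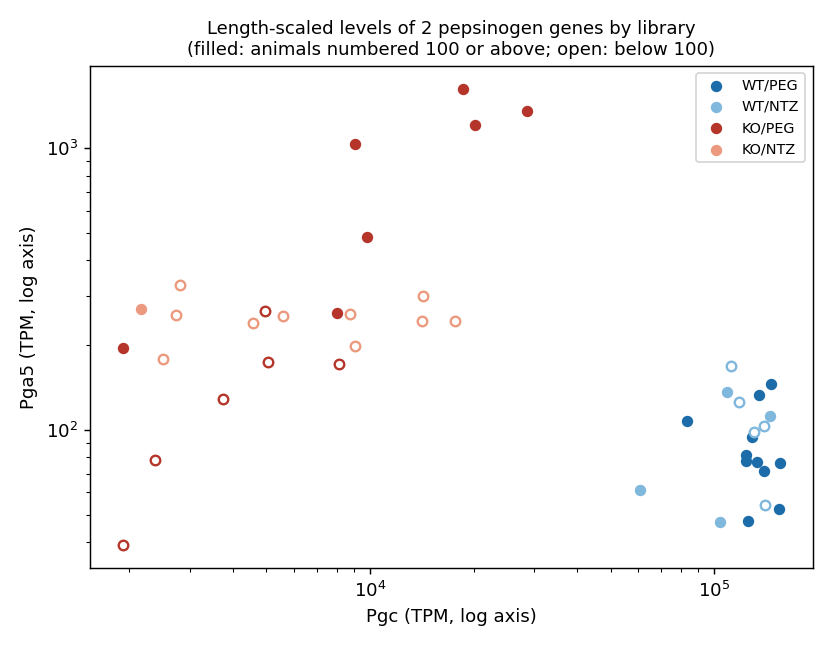
TPM of Pga5 against TPM of Pgc in each library (log axes), with filled points for animals numbered 100 or above. All KO libraries lie to the left of the WT libraries in Pgc, and the KO/NTZ libraries lie at similar Pga5 levels across the KO range of Pgc.

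The chitinase family moved in both directions. Of 7 genes, Chia1 and Ctbs fell and 4 rose in KO/PEG versus WT/PEG mice (median 0.80 on the log2 scale), although Ctbs did not pass with library totals alone. Those that rose were Chid1 and the chitinase-like Chil1, Chil3 and Chil4, which bind but do not cleave chitin. Levels were low for Chil1 (means 0.159 in WT/PEG and 4.20 CPM in KO/PEG) and Chil3 (0.00507 and 0.505 CPM). Chil3 was also higher in KO/NTZ than in KO/PEG mice (1.40, edgeR adjusted p = 0.0423), but did not pass with library totals alone. There 5.56% of all genes passed. Chil1 passed the interaction (-2.41, edgeR adjusted p = 0.0255), as did 0.96% of all genes. Chil4 went from a mean of 7.04 to 1089.8 CPM, with a log2 fold change of 7.22 (edgeR adjusted p = 6.96e-09). Chil3 and Chil4 are close paralogs, so reads may have been divided between them. Chit1, the other active chitinase, was 7.07 CPM in WT/PEG and 6.85 CPM in KO/PEG mice and did not pass (edgeR adjusted p = 0.863). Of 10 genes for vitamin B12 uptake and transport, 8 were tested, and 4 fell and 2 rose (median -0.50 on the log2 scale). Beside Gif, the endocytic receptor Lrp2 fell by a log2 fold change of -3.35 (edgeR adjusted p = 2.63e-07), and Mmachc and Mtr, which process and use the vitamin inside cells, fell as well. Tcn2, the plasma carrier, and Cd320, its receptor, rose.

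Genes tied to Bhlha15 did not all share its direction. Among 8 targets and partners of MIST1, Bhlha15 itself left out, 4 fell and 4 rose in KO/PEG versus WT/PEG mice, with a median log2 fold change of -0.17. Rab26, a small GTPase of secretory granules and a MIST1 target, fell (-1.71, edgeR adjusted p = 2.98e-06) from a mean of 1.34 CPM. Rab3d, another granule GTPase that MIST1 controls, rose slightly (0.27, edgeR adjusted p = 0.00101), and the secretory pathway calcium pump Atp2c2 rose more (2.78). Of the E proteins that pair with MIST1, Tcf4 (-0.65) and Tcf12 (-1.10) fell and Tcf3 (0.84) rose. Of 10 regulators of secretory cells, 9 were tested, and 5 fell, Bhlha15 among them, and 3 rose (median -0.25). Xbp1, which acts upstream of Bhlha15, had a log2 fold change of -0.24 that passed but turned to 0.06 with library totals alone, while Spdef, a regulator of mucous cells, rose by 2.88. In KO/NTZ versus KO/PEG mice, where 5.56% of all genes passed, none of the genes in these 2 lists did.

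Genes of the granule and of exocytosis numbered 15, of which 14 were tested. Of these 9 rose and 4 fell in KO/PEG versus WT/PEG mice (median 0.34 on the log2 scale), where 74.7% of all genes passed. Syt7, a calcium sensor for granule release, fell (-1.23), as did the SNARE protein Snap23 (-0.76) and, except with library totals alone, Rab27b (-0.88). The SNARE protein Vamp8 rose (1.43) and so did Dmbt1, a secreted mucosal scavenger protein (4.35). Stx3 and Vamp2 were higher in KO/NTZ than in KO/PEG mice, by 0.45 and 0.57 on the log2 scale, in a comparison that 5.56% of all genes passed. Among 12 digestive secretions of the stomach, 10 were tested, of which 2 rose and 6 fell in KO/PEG versus WT/PEG mice (median -0.83). Pga5 was among those that rose and Gif, Pgc and Chia1 among those that fell, so these genes are counted again here. Colipase Clps also fell, from a mean of 38917 to 4275 CPM (log2 fold change -3.21, edgeR adjusted p = 1.6e-08). The lipases Cel (-1.10) and Pnliprp1 (-1.29) fell in KO/NTZ versus KO/PEG mice. With 10 of 11 KO/NTZ libraries numbered below 100, treatment and number cannot be fully told apart for these lipases, Stx3 or Vamp2.

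Variation within groups was used to ask which genes followed each member from library to library. Group means were subtracted from log2 CPM, and Pearson's r over the 44 libraries is given as a description, since libraries share animals' condition, depth and normalization. Pgc was followed most closely by Tmed6, a cargo receptor of the early secretory pathway (r = 0.91), and by Clps (0.90). Chia1 was followed by Pla2g1b, a secreted phospholipase (0.91), and Try10, a trypsinogen (0.89). Gif was followed by Cckar, a cholecystokinin receptor (0.91), and Ptger3, a prostaglandin receptor (0.90). Bhlha15 was followed by Syne4 (0.78) and Tmed6 (0.77), and Pgc was among its nearest 5 (0.73). The neighbours of Pga5 were other genes, with Sst, the somatostatin of D cells, first (0.77) and Acat1 second (0.77). Pga5 varied most in KO/PEG mice (standard deviation of log2 CPM 1.76, against 0.19 in KO/NTZ mice). There it differed by animal number, which subtraction of group means does not remove. Clps was among the nearest 5 of Pgc, Chia1 and Bhlha15, Tmed6 of Pgc and Bhlha15 and Pla2g1b of Pgc and Chia1, and none of the nearest 5 of Pga5 or Gif was among those of another member. Within the 24 KO libraries, r of Pgc was 0.71 with Pga5, 0.77 with Chia1, 0.65 with Gif and 0.75 with Bhlha15, and it was also high with the parietal cell gene Atp4a (0.80) and with Cym (0.79). The r with Pga5 rests mainly on KO/PEG libraries, since Pga5 stayed between 258 and 377 CPM in KO/NTZ mice. Within KO/PEG mice both genes were higher in animals numbered 100 or above, and the part of animal number in r was not tested. Within the 20 WT libraries r of Pgc was 0.29 with Pga5, 0.58 with Chia1, 0.82 with Gif, 0.66 with Bhlha15, 0.71 with Atp4a and -0.30 with Cym.

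The 250 bases before the start of transcription were available in RefSeq (GRCm38.p6) for 4 of the 5 genes, and Gif is listed there as Cblif. MIST1 binds E-boxes, sites of the form CANNTG, and CATATG and CAGCTG are forms it is known to bind. The Chia1 window (chr3:106113132-106113381) overlaps a GENCODE exon by 153 bases, so most of it lies after the start given by GENCODE, and it is not printed. The windows of Gif, Pgc and Bhlha15 are shown to let their E-boxes be compared, with CANNTG and the TATA motif TATAAA in capitals and all on the plus strand.
Gif, chr19:11747309-11747558: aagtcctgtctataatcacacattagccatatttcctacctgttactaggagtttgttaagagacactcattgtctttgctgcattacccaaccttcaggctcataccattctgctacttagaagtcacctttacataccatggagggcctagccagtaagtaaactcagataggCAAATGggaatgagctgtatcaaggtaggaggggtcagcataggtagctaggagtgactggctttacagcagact
Pgc, chr17:47726592-47726841: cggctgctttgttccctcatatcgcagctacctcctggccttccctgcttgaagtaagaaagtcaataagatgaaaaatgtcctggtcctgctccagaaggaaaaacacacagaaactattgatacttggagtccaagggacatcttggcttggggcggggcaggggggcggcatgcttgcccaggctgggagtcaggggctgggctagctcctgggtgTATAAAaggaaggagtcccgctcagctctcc
Bhlha15, chr5:144190036-144190285: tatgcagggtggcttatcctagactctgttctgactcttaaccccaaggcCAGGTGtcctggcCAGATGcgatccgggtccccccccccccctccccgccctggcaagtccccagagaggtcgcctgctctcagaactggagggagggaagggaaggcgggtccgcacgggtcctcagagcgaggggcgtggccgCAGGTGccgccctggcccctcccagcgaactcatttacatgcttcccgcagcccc
On either strand, CANNTG, which includes the other forms, occurred 1 time before Gif, 0 times before Pgc, 3 times in the window of Chia1 and 3 times before Bhlha15, and at least once in 66.2% of 32851 such windows. The window of Gif overlaps a GENCODE exon by 5 bases. Neither CATATG (in 3.46% of windows) nor CAGCTG (13.0%) occurred in the 4 windows. TATAAA occurred in the windows of Pgc and Chia1, as in 12.4% of windows.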

How the data were processed

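RNA from ventral corpus mucosa was sequenced as single reads from stranded mRNA libraries. Per the labels, the authors used bcl2fastq, GRCm38, kallisto 0.42.4 and sleuth, and the deposited table holds estimated counts for 94080 transcripts, not normalized. The sleuth test needs estimates of technical variance that were not used here. Here 92372 transcripts were paired with GENCODE vM21 gene names and summed per gene. The other 1708 took 0.329% to 1.3% of a library's counts and were left out. Sums were rounded, filtered with filterByExpr (minimum count 10, total 15), scaled by TMM and tested in edgeR 4.0.16 (R 4.3.3) by the quasi-likelihood test, with 4 group means in 1 fit, Benjamini-Hochberg adjustment over all genes tested and a threshold of 0.05. CPM are counts scaled by library total and TMM factor, and TPM were computed from transcript lengths. The share of Pgc-202 was compared by permutation in scipy 1.17.1. The steps were tested on simulated data with 200 of 14773 genes changed. Of the calls, 7.46% were false by edgeR, 12.7% by DESeq2 and 5.7% by limma. By edgeR 96% of 4-fold and 90% of 2-fold changes were recovered. The simulation did not cover a comparison such as KO/PEG versus WT/PEG, which 74.7% of genes passed.

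The members and gene lists were chosen with earlier results of these data known. The 5 members were named in every comparison, list genes where they passed or, in lists of at most 12, where measured, and for likeness the 5 genes of highest r (log2 CPM, prior count 2). DESeq2 1.42.0, limma-trend 3.58.1, RLE size factors, library totals, no filter, only the groups compared, summed or omitted libraries sharing an animal number, animal number subsets, 1 transcript per gene, the median share and leaving out each library were tried. The comparison by animal number within a group, the ratios of TPM and the Pgc-202 share without libraries above 30 CPM of antral gland markers were added after seeing the data. Promoters came from RefSeq. Depth limits counts of 0 to 3 counts, or 0.137 to 0.495 CPM.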

Additional observations from a re-analysis of the deposited data

Results flagged for a closer look

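In WT/NTZ mice, library WT_118 had the lowest Pgc level, 57497 CPM, at a wide gap from the other 8 libraries of the group, the next of which had 131165 CPM. Its level of Pgc-201, 60585 CPM after normalization over transcripts, stood apart in the same way. Chance alone sets a library apart by this rule in about 1 in 20 groups, and the 2 values are nearly the same measurement, out of 7 tested. In the same library parietal cell markers summed to 7012 CPM, the lowest of its group, surface mucous cell markers to 63535 CPM, also the lowest, and antral gland markers to 35.4 CPM, above all others of the group but WT_117, and their part in its Pgc level was not tested.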

How the results depend on the processing

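The direction and call of Gif, Pgc, Pga5, Chia1 and Bhlha15 between KO and WT mice, under PEG and under NTZ, were the same under each alternative run, leaving out each of the 44 libraries included. Under PEG, log2 fold changes ranged from -2.93 to -1.76 for Gif, -4.45 to -3.33 for Pgc, 1.68 to 3.21 for Pga5, -5.58 to -2.52 for Chia1 and -1.68 to -1.23 for Bhlha15. Of 1398 values compared over all 5 comparisons, 35 changed sign, none of them called. In KO/NTZ versus KO/PEG mice, animals numbered below 100 gave 1.09 for Pgc, 1.06 for Pga5, 0.0685 for Bhlha15 and 1.08 for Pgc-201, and leaving out single libraries gave -0.41 to 0.001 for Pgc and -0.22 to 0.65 for Chia1. In WT/NTZ versus WT/PEG mice, animals numbered 100 or above gave -0.0065 for Pga5 and -0.19 for Chia1, the transcript with the highest mean count gave -0.0072 for Chia1, and leaving out single libraries gave -0.15 to 0.15 for Chia1. For the interaction, limma-trend gave 0.15 for Pgc, 0.12 for Pgc-201 and 2.34 for Pgc-202, omitting both libraries numbered 110 gave 0.0261 for Pgc and 0.0037 for Bhlha15, and leaving out single libraries gave -0.26 to 0.16 for Pgc, -0.23 to 0.64 for Chia1 and -0.22 to 0.0705 for Bhlha15.

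Counts of genes called moved more. For KO/NTZ versus KO/PEG mice (829 genes) they were 1249 by DESeq2, 256 below number 100, 514 with the highest transcript, 267 with only the groups compared, and 558 to 1815 without single libraries (1661 without KO_53, 1815 without KO_109, 1711 without KO_25). For WT/NTZ versus WT/PEG mice (154) they were 2 by limma-trend, 580 at number 100 or above, 75 with the highest transcript, 0 in edgeR with only the groups compared (1166 genes had an unadjusted p under 0.05 in the fit of all groups), and 57 to 249 without single libraries (57 without WT_118, 249 without WT_93). For the interaction (0.96% of genes) they were 274 by DESeq2, 53 by limma-trend, 79 with the highest transcript, and 88 (without WT_118) to 213 without single libraries. With library totals alone, 36.9% of calls in KO/NTZ versus KO/PEG mice were higher in place of 53.3%, 60.7% in KO/NTZ versus WT/NTZ mice in place of 49.2%, and 6.51% in the interaction in place of 25.2%, where limma-trend gave 45.3%. The difference in share of Pgc-202 between WT/NTZ and WT/PEG mice was -1.46 percentage points among animals numbered 100 or above, and passed there. The cause of these changes was not tested. No paired analysis was possible because the groups compared share at most 1 animal number.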
